A study of Homo sapiens with 9 samples.

Results

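The comparison described here set the H1R18 library against the untreated NC libraries in HEK293T, an established line of human embryonic kidney origin that carries the SV40 large T antigen. NC cells (2 libraries) were wild type and received no heat. H1R18 cells (1 library) were held at 43 °C for 1 h and then returned to 37 °C for 18 h. These 3 libraries were chosen from the 9 of the series by their labels. The other 6, used here for the spread between libraries and for values side by side, were collected at the end of the heat (H1, 2 libraries) or after 1 h (H1R1, 2 libraries) or 6 h (H1R6, 2 libraries) at 37 °C. All cells were of the same line and carried no further manipulation named in the labels. The question addressed was which transcripts still differed from untreated cells after 18 h of recovery. When the NC cells were collected relative to the 18 h was not given in the sources used here, so recovery from heat and 18 h more in culture cannot be told apart.

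Heat unfolds proteins and activates HSF1, which drives genes for cytosolic chaperones such as HSP70, HSP90 and small heat shock proteins. This response rises within the hour and is switched off as free chaperones return. Slower programmes follow in stressed cells. The unfolded protein response raises chaperones of the endoplasmic reticulum (ER) through ATF6, IRE1 and PERK, ATF4 and CHOP drive amino acid supply and stress genes, and SREBP2 drives cholesterol synthesis when sterols in the ER membrane are low.

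RNA-seq of total RNA after removal of ribosomal RNA gave 3822165 counts in the H1R18 library and 4922367 and 3814195 in NC. The other libraries held 4476409 to 6221613 counts. A count is a read, not a read pair. Genes were tested when their level, averaged over the 5 conditions with equal weight, reached 10 counts in a library of median size, which left 16914 of 60664 genes. Levels are given as TMM-normalized CPM (counts scaled to a common library total), always in the order NC replicate 1, NC replicate 2 and H1R18. Differences are log2 fold changes of H1R18 against NC with a standard error (SE), from edgeR's quasi-likelihood test with Benjamini-Hochberg adjustment, and a gene is called higher or lower when its adjusted p is under 0.05. H1R18 had a single library. Its spread was therefore taken from the 4 replicated conditions, and no value at 18 h has a replicate of its own. Nothing in the labels says that the replicates came from separate cultures, so the p-values measure the spread between these libraries, which may be technical.

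At H1R18, 1108 genes (6.55% of those tested) were higher and 1332 (7.88%) were lower than in NC. For all of these called genes the H1R18 value lay outside both NC values. The changes were mostly moderate. Of the higher genes, 263 changed by under 0.5 on the log2 scale, 531 by 0.5 to 1 and 314 by 1 or more, and of the lower genes the numbers were 304, 623 and 405. The median over all genes tested was -0.01. Tested against a 2-fold change instead of no change (a log2 fold change of 1), 20 genes passed as higher and 53 as lower. That test is left out of the ranges of adjusted p over the alternatives and of the calls said to be lost.

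**Figure D1:**
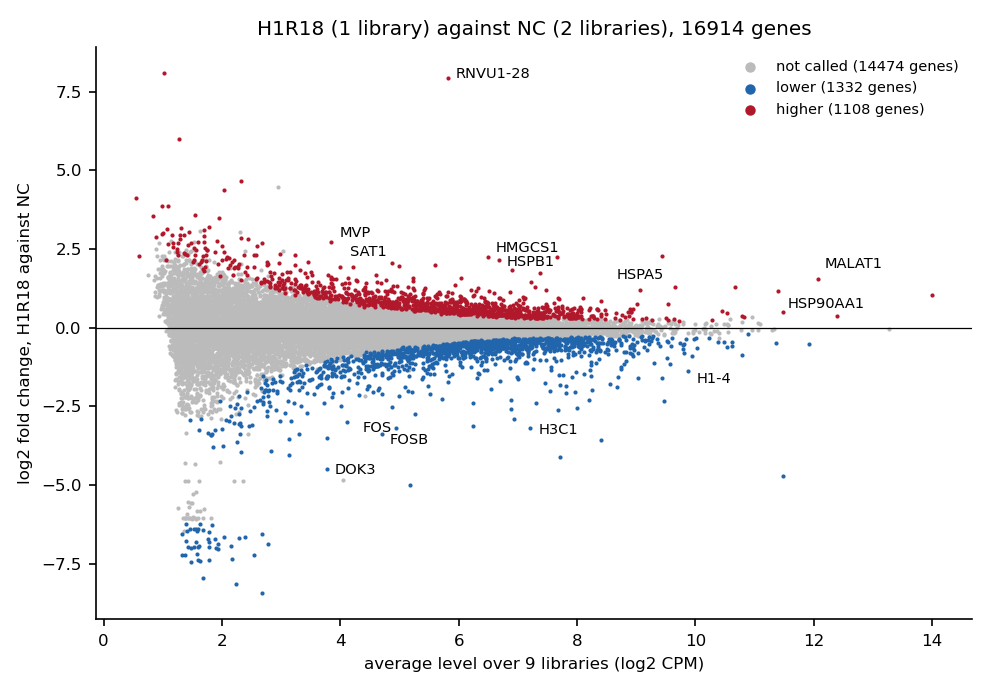
Log2 fold change of H1R18 against NC (vertical axis) by average level over the 9 libraries in log2 CPM (horizontal axis) for the 16914 genes tested, 1 point per gene, with the 1108 higher genes in red and the 1332 lower genes in blue. Points near or under -5 at low levels include the 82 genes with a count of 0 at H1R18, whose fitted values are not bounds.

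Markers of the embryonic kidney line were present in every library, with a summed level of 218 CPM at H1R18 and 268 and 244 in NC. Of the 12 markers, PAX8, LHX1 and OSR1 had at most 6 counts in any library. Of 12 hepatocyte genes of Huh7, a liver line also used in the study, no gene passed the filter, and the list summed to 0 to 8 counts in a library. The 10 genes of adult kidney summed to 62.2 CPM at H1R18 and 68.0 and 72.2 in NC. Between the 2 NC libraries the chi-square per degree of freedom, computed on counts halved to read pairs, was 2.35 over 13332 genes, where counting error alone gives about 1, and it was 1.72 to 1.77 between the pairs of H1, H1R1 and H1R6. Genes typed as ribosomal RNA held 0.0599% of counts at H1R18, against 0.241% and 0.215% in NC. The lincRNA genes of the chromosome 21 short arm held 0.0530% of counts at H1R18, against 1.43% and 0.576% in NC. Their part in other values was not tested.

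Many genes of sterol synthesis and uptake were higher at H1R18. Of 24 tested members, 12 rose and 3 fell, against 6.55% and 7.88% of all genes, and the median log2 fold change was 0.49. HMGCS1, which makes the HMG-CoA that feeds the mevalonate pathway, was at 52.1 and 52.5 CPM in NC and at 251 CPM at H1R18 (log2 fold change 2.26, SE 0.12, adjusted p = 1.08e-13). Its H1R18 value was above every other library, where it lay between 57.7 and 96.5 CPM after heat. MSMO1, a sterol C4-methyl oxidase, went from 30.2 and 27.3 to 116 CPM (log2 fold change 2.01, SE 0.16, adjusted p = 6.29e-10). INSIG1, which retains SREBP in the ER when sterols are plentiful, went from 80.3 and 72.7 to 275 CPM (log2 fold change 1.84, SE 0.12, adjusted p = 3.68e-12), and IDI1, an isomerase of the mevalonate pathway, from 49.2 and 44.3 to 139 CPM (log2 fold change 1.57, SE 0.14, adjusted p = 3.78e-09). All 3 were likewise highest in the H1R18 library of the 9.

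A carrier and the transcription factor of the pathway were higher too. STARD4, a cytosolic sterol carrier, rose by 1.19 (SE 0.19) on the log2 scale. SREBF2, the gene of SREBP2, was at 246 and 255 CPM in NC and 369 CPM at H1R18 (log2 fold change 0.56, SE 0.10, adjusted p = 0.000316). MVD, SQLE and SC5D rose by 0.88, 0.70 and 0.54. The call for FDFT1 (0.43) was lost without NC replicate 2 (adjusted p 0.00752 to 0.073 over the alternatives). STARD4, MVD, SQLE, SC5D and FDFT1, as well as EBP and ACAT2, were named after their values were seen, as members of the list.

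Not all of the pathway rose. EBP, which acts late in cholesterol synthesis, and ACAT2, a cytosolic thiolase at its start, were lower, at -0.96 (SE 0.28) and -0.92 (SE 0.22). The call for EBP was lost without NC replicate 1, with DESeq2 and with limma-voom (adjusted p 0.014 to 0.0836 over the alternatives). Of 13 tested genes of fatty acid synthesis none rose, against 6.55% of all genes, and 3 fell (23.1%, against 7.88%). SREBF1, the gene of SREBP1, fell by 0.58, ACLY, which makes cytosolic acetyl-CoA, by 0.57 and FASN, the fatty acid synthase, by 0.46, while SCD, the stearoyl-CoA desaturase, was at 728 and 669.6 CPM in NC and 701 CPM at H1R18.

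**Figure D2:**
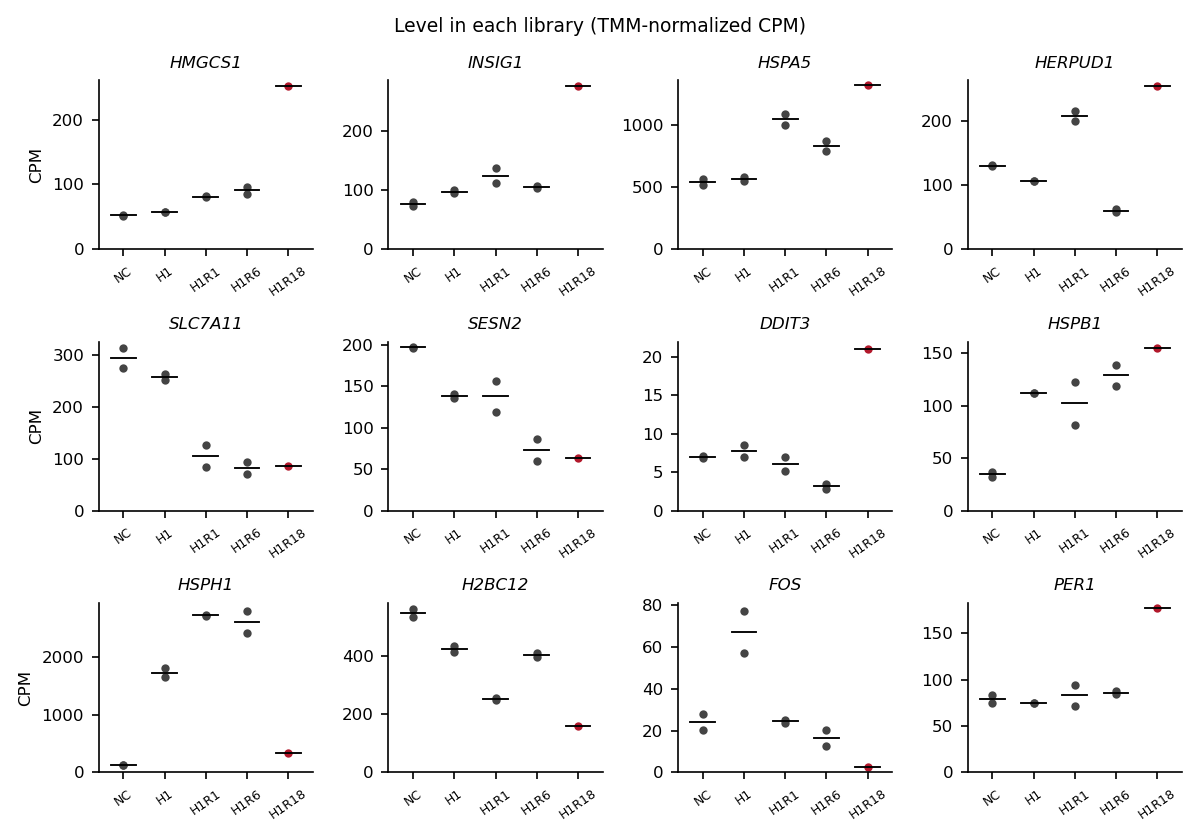
Level in TMM-normalized CPM (vertical axes, each from 0) of 12 genes in the 9 libraries, by condition, with dots for libraries, lines for condition means and the single H1R18 library in red. HMGCS1, INSIG1, HSPA5, HERPUD1, DDIT3, HSPB1 and PER1 were at their highest in the H1R18 library, and H2BC12 and FOS at their lowest.

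In the ER, a small set of chaperones rose while most of the folding machinery was not called. Of 22 tested ER chaperones and folding enzymes, 5 were higher (22.7%) and 1 was lower (4.55%), against 6.55% and 7.88% of all genes, and the median of the list was -0.03. HSPA5, which encodes BiP, the main HSP70 of the ER, was at 514 and 564 CPM in NC and at 1318 CPM at H1R18 (log2 fold change 1.29, SE 0.08, adjusted p = 6.79e-12). HSP90B1, the ER form of HSP90, went from 465 and 472 to 793 CPM (log2 fold change 0.76, SE 0.08, adjusted p = 2.61e-07), ERO1B, an oxidase that restores protein disulfide isomerase, from 44.1 and 47.7 to 91.7 CPM (log2 fold change 1.00, SE 0.15, adjusted p = 3.80e-05), and PDIA4, a disulfide isomerase, from 333 and 327 to 488 CPM (log2 fold change 0.56, SE 0.09, adjusted p = 4.31e-05). CALR, the lectin chaperone calreticulin, rose by 0.32 (SE 0.09), a call that was lost without NC replicate 2 and in a fit of NC and H1R18 alone (adjusted p 0.00825 to 0.0714 over the alternatives). CANX, its membrane-bound partner, was at 1218 and 1251 CPM in NC and 1084 CPM at H1R18 (adjusted p = 0.0971). The lower call, DNAJC10, was lost without NC replicate 2, without any library of H1 or H1R6, and in 5 other alternatives, DESeq2 and limma-voom among them (adjusted p 0.0082 to 0.278), and without NC replicate 1 the number lower was 2. CALR and DNAJC10 were named after their values were seen.

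Of 15 tested genes of ER-associated degradation 1 was higher (6.67%, near the 6.55% of all genes) and 1 was lower (6.67%, against 7.88%). The higher member was HERPUD1, a membrane protein that recruits the degradation machinery. It was at 129.7 and 131 CPM in NC, 199 and 215 at H1R1, 62.9 and 57.9 in H1R6 and 254 at H1R18 (log2 fold change 0.96, SE 0.10, adjusted p = 1.58e-07), so that its value went below NC at 6 h and above it at 18 h. FAF2 was lower, at -0.36 (SE 0.11), a call lost without NC replicate 2, with DESeq2 and in a fit of NC and H1R18 alone (adjusted p 0.0222 to 0.0671), and without that library 2 members were higher. Of 11 tested ER stress sensors and their factors 2 were higher (18.2%, against 6.55% of all genes) and 1 was lower (9.09%, against 7.88%). ERN1, the gene of IRE1, rose from 47.8 and 45.6 to 104 CPM (log2 fold change 1.15, SE 0.17, adjusted p = 2.84e-05). EIF2AK3, the gene of PERK, rose by 0.58 (SE 0.18), and that call was lost without either NC library, with DESeq2, with a replicate block and when genes of low counts were kept (adjusted p 0.0184 to 0.0793).

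The promoters of these genes are shown because the known ER stress response elements, bound by ATF6 and XBP1, were found in 4 of the 5 higher ER chaperones. The sequences are from RefSeq (GRCh38.p14) and run 5′ to 3′ on the strand of the gene over the 250 bases before its start. Capitals mark the element. ERSE was searched as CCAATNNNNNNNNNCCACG and ERSE-II as ATTGGNCCACG, on both strands, over those bases and the 50 after the start, and no match of one motif overlapped a match of the other in the sequences printed. HSPA5 is at chr9:125241344-125241593 on the minus strand with the first base of its ERSE at -66. HSP90B1 is at chr12:103930160-103930409 on the plus strand with matches at -194 and, on the other strand, at -89. ERO1B is at chr1:236281959-236282208 on the minus strand (match at -243, other strand), CALR at chr19:12938359-12938608 on the plus strand (match at -225, other strand) and HERPUD1 at chr16:56931892-56932141 on the plus strand (ERSE-II at -117).
HSPA5: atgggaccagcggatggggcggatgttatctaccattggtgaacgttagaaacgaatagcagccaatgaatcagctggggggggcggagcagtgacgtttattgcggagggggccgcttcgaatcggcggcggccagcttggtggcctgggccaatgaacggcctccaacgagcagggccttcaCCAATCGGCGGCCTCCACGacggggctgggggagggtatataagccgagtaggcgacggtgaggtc
HSP90B1: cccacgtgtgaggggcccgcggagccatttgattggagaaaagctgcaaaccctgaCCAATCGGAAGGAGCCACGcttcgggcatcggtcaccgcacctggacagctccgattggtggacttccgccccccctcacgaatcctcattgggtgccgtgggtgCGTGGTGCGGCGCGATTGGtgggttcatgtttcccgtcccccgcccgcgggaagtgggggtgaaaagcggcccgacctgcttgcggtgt
ERO1B: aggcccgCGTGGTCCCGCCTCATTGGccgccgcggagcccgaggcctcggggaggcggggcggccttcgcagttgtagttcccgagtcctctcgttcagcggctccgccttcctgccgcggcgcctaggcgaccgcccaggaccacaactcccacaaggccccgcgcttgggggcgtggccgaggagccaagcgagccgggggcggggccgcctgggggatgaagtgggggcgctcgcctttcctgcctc
CALR: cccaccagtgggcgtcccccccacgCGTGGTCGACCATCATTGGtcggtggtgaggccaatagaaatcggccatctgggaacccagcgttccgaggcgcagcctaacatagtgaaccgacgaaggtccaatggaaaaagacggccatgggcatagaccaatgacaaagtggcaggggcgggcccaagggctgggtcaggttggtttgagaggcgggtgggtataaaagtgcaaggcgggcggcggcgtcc
HERPUD1: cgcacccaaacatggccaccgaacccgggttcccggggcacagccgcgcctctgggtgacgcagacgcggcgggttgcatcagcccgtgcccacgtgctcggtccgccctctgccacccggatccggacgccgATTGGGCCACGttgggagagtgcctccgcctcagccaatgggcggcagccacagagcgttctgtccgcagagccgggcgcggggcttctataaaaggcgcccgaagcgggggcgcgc

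ERSE was present in 2 of the 15 promoters of ER chaperones that were not called, CANX and CRELD2, and in 0.135% of 11123 promoters of all genes tested. ERSE-II was in none of the 5 higher ER chaperones, in 2 of the 15 not called, HYOU1 and SDF2L1, and in 0.108% of promoters of all genes tested. The presence of these letters is a description of the sequence and not evidence of binding. The sterol regulatory element TCACCCCAC was found in the promoter of SREBF2 and in none of the other 17 sterol genes that had a promoter entry, and in 0.351% of promoters of all genes tested. Only this exact sequence was searched, and only 8 of the 12 higher sterol genes had an entry. Other forms of the element could therefore have been missed.

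Targets of ATF4 and CHOP were mostly lower. Of 36 tested members, 23 were lower (63.9%, against 7.88% of all genes), with a median of -0.68 against -0.01 over all genes tested. The 3 higher members (8.33%) were a share near the 6.55% of all genes. The lower members were mostly genes of amino acid uptake and synthesis. SLC7A11, the cystine importer, was at 275 and 315 CPM in NC and 86.8 CPM at H1R18 (log2 fold change -1.76, SE 0.17, adjusted p = 3.72e-08). SLC7A5, the importer of large neutral amino acids, went from 752 and 733 to 344 CPM (log2 fold change -1.11, SE 0.11, adjusted p = 8.78e-08), and its partner chain SLC3A2 from 325 and 349 to 186 CPM (log2 fold change -0.86, SE 0.10, adjusted p = 7.18e-07). The serine synthesis genes PHGDH, PSAT1 and PSPH were lower, at -0.60 (SE 0.11), -1.17 (SE 0.16) and -1.47 (SE 0.19). SESN2, an inhibitor of mTORC1, was at 196 and 197 CPM in NC and 63.6 CPM at H1R18 (log2 fold change -1.63, SE 0.17, adjusted p = 1.01e-07), DDIT4, another such inhibitor, was lower, at -1.31 (SE 0.18), and TRIB3, a pseudokinase that restrains ATF4, at -1.57 (SE 0.25). ATF4 itself was at 587 and 575 CPM in NC and 393 CPM at H1R18 (log2 fold change -0.56, SE 0.11, adjusted p = 0.000605). ASNS, the asparagine synthetase, was at 24.7 and 24.7 CPM in NC and 37.0 CPM at H1R18, without passing the threshold (adjusted p = 0.236). The call for CHAC1, which degrades glutathione and had the lowest value of the list (-2.04), was lost with DESeq2 (adjusted p 3.64e-11 to 0.239 over the alternatives).

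The 3 higher members were DDIT3, ATF3 and PPP1R15A. DDIT3, the gene of CHOP, was at 7.15 and 6.82 CPM in NC, 2.85 and 3.53 in H1R6 and 21.1 at H1R18 (log2 fold change 1.59, SE 0.38, adjusted p = 0.00455). The annotated ends of DDIT3 and MARS1 overlap on opposite strands of chromosome 12, and reads that fell on both genes were not counted. ATF3, a factor of the same family, was at 43.1 and 40.9 CPM in NC, 113 and 113 at H1, 28.5 and 27.9 in H1R6 and 97.4 at H1R18 (log2 fold change 1.21, SE 0.16, adjusted p = 4.00e-06). PPP1R15A, the gene of GADD34, which returns eIF2 to its active form, had a like course, with 32.3 and 24.4 CPM in NC, 79.2 and 79.0 at H1, 27.5 and 30.7 in H1R6 and 56.3 at H1R18 (log2 fold change 0.98, SE 0.19, adjusted p = 0.000828). Each of the 3 was near or below its NC level at 6 h and above both NC libraries at 18 h. DDIT3, PPP1R15A, PSAT1, PSPH, TRIB3, ATF4, ASNS and CHAC1 were chosen after their values were seen.

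**Figure D3:**
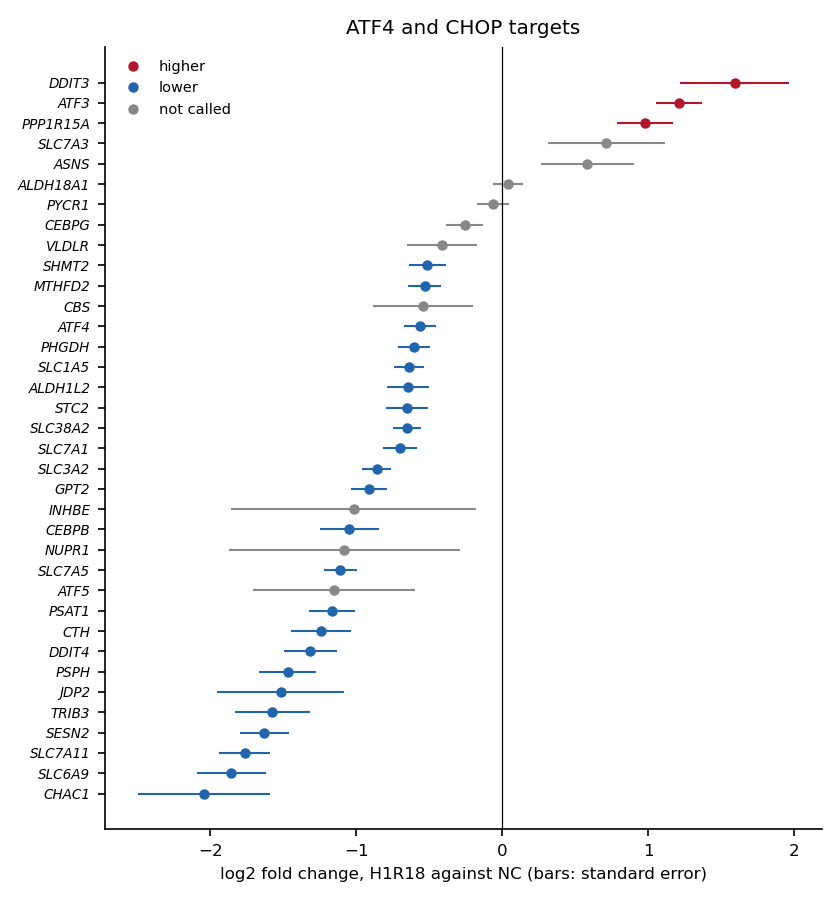
Log2 fold change of H1R18 against NC (horizontal axis, dots, with the standard error as bars) for the 36 tested ATF4 and CHOP targets (vertical axis), with 3 higher members in red, 23 lower in blue and those not called in grey. DDIT3, ATF3 and PPP1R15A stand to the right of 0 at 1.59, 1.21 and 0.98, and SLC7A11 and SESN2 to the left at -1.76 and -1.63.

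Cytosolic tRNA synthetases, many of which are driven by ATF4, were lower or not called. Of 20 tested members 8 fell, or 40.0% against 7.88% of all genes, and none rose. WARS1 was at 159 and 194 CPM in NC and 81.0 CPM at H1R18 (log2 fold change -1.12, SE 0.13, adjusted p = 6.01e-07), MARS1 at 329 and 325 and 191 CPM (log2 fold change -0.78, SE 0.10, adjusted p = 5.35e-06) and TARS1 at 320.4 and 312 and 199.8 CPM (log2 fold change -0.66, SE 0.10, adjusted p = 3.65e-05). NARS1 and EPRS1 fell by 0.67 and 0.53 on the log2 scale. The call for IARS1 (-0.31) was lost without NC replicate 2 (adjusted p 0.000481 to 0.0661). The element bound by ATF4 with C/EBP factors, searched as TGATGNAAT or TGATGNAAC on both strands, lay in the promoter window of 4 of the 7 lower synthetases with an entry (IARS1, MARS1, NARS1 and TARS1, first base at -14, -5, 15 and 2 from the start), of 2 of the 9 not called and of 0.881% of all genes tested. It lay in 2 of the 18 lower ATF4 and CHOP targets with an entry.

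Cytosolic heat shock genes were mixed after 18 h. Of 38 tested members 6 were higher (15.8%, against 6.55% of all genes), 6 were lower (15.8%, against 7.88%) and 26 were not called, and the median log2 fold change was 0.08, against 0.94 at H1R1 and 0.45 at H1R6, where the same NC libraries were the reference. HSPB1, the small heat shock protein HSP27, was at 32.7 and 36.7 CPM in NC, and its values were 112 and 112 directly after heat, 81.7 and 123 an hour later, 119 and 139 in H1R6 and 155 in H1R18 (log2 fold change 2.17, SE 0.17, adjusted p = 2.95e-10). HSPH1, the HSP110 exchange factor, was at 135 and 134 CPM in NC, 2415 and 2797 in H1R6 and 329 at H1R18 (log2 fold change 1.29, SE 0.08, adjusted p = 7.65e-12), and HSP90AA1, the inducible HSP90, at 986 and 1004, 4074 and 4405 and 2227 CPM (log2 fold change 1.16, SE 0.06, adjusted p = 2.90e-13). At 18 h HSPH1 and HSP90AA1 had come down from their 6 h level and were still above NC. The difference of HSPB1 between H1R18 and H1R6 did not pass the threshold (log2 difference 0.26, SE 0.15, adjusted p = 0.242). HSP90AB1, the constitutive HSP90, rose by 0.33 (SE 0.07). HSPA6, an HSP70 that is silent without stress, was at 0.817 and 3.15 CPM in NC and 8.86 CPM at H1R18, and its call was lost without NC replicate 1, with DESeq2, with limma-voom and on counts halved to read pairs (adjusted p = 0.0291, 7.96e-06 to 0.219 over the alternatives). The call of HSF2 (log2 fold change 0.56, adjusted p 0.00745 to 0.213) was lost without NC replicate 1 and with DESeq2. HSPA6 has a near-identical copy, HSPA7, and reads with several alignments were not counted.

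The 6 lower members were DNAJA1, HSPA8, AHSA1, STIP1, BAG1 and STUB1. DNAJA1, an HSP40, was at 138 and 131 CPM in NC, 667 and 569 at H1R1, 159 and 228 in H1R6 and 63.8 at H1R18 (log2 fold change -1.08, SE 0.16, adjusted p = 3.71e-05). HSPA8, the constitutive HSP70, was at 434 and 512 CPM in NC, 2197 and 1686 at H1R1 and 272 at H1R18 (log2 fold change -0.80, SE 0.15, adjusted p = 0.0005), a call that was lost with DESeq2 (adjusted p 2.25e-20 to 0.0639). AHSA1 and STIP1, co-chaperones of HSP90, fell by 0.59 and 0.50. The calls for BAG1 (-0.64) and STUB1 (-0.47) were lost without NC replicate 1, with DESeq2 and with limma-voom (adjusted p 0.0127 to 0.217 and 0.0263 to 0.1). DNAJB1, an HSP40 that works with HSP70, was at 69.6 and 80.8 CPM in NC, 3693 and 3807 at H1R1 and 59.9 at H1R18, without passing the threshold (adjusted p = 0.218). HSPA1A and HSPA1B, which are near-identical, had at most 3 and 2 counts in a library and were not tested. HSF2, HSPA8, AHSA1, STIP1, BAG1 and STUB1 were named after their values were seen.

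Subunits of the cytosolic chaperonin and the proteasome were lower or not called. Of the 8 subunits of TRiC, the cytosolic chaperonin, 5 fell (62.5%, against 7.88% of all genes) and none rose (median -0.38). Among the lower subunits CCT5 went from 314 and 307 to 190.5 CPM (log2 fold change -0.71, SE 0.10, adjusted p = 9.49e-06) and CCT7 was at -0.64 (SE 0.09) on the log2 scale. Of 32 proteasome subunits, 14 fell (43.8%, against 7.88% of all genes) and none rose. All 32 had values below 0 (median -0.33, range -0.93 to -0.03), as had 8612 of the 16914 genes tested. PSMD12, a subunit of the lid, went from 108 and 105 to 56.0 CPM (log2 fold change -0.93, SE 0.13, adjusted p = 1.05e-05), and PSMB5, which carries the chymotrypsin-like activity, from 147 and 135 to 87.5 CPM (log2 fold change -0.69, SE 0.12, adjusted p = 0.000131). Of 44 autophagy and lysosome genes 6 were higher (13.6%, against 6.55% of all genes) and 7 were lower (15.9%, against 7.88%), with 3 higher without NC replicate 1. GABARAPL1, an ATG8 protein of the autophagosome, rose from 15.9 and 13.6 to 42.7 CPM (log2 fold change 1.52, SE 0.27, adjusted p = 0.000218), and GLB1, the lysosomal beta-galactosidase, fell from 67.6 and 82.1 to 41.2 CPM (log2 fold change -0.86, SE 0.17, adjusted p = 0.000865).

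**Figure D4:**
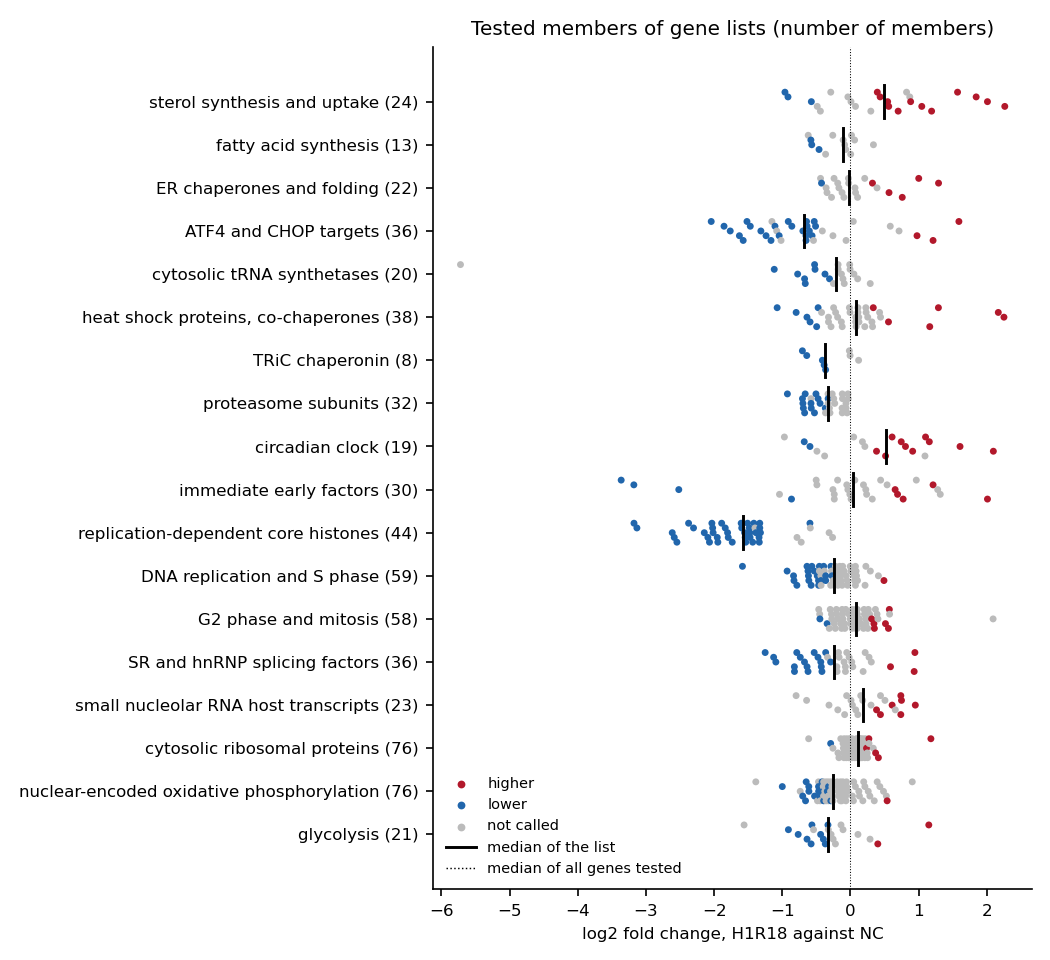
Log2 fold change of H1R18 against NC (horizontal axis) for the tested members of 18 gene lists (vertical axis), 1 dot per gene, red for higher, blue for lower and grey for not called, with a bar at the list's median and a dotted line at the median of all genes tested. The core histones lie furthest to the left as a group (median -1.57), and the sterol and clock lists have the highest medians of those drawn, 0.49 and 0.51.

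Replication-dependent core histones, which package newly copied DNA and are made in S phase, had the largest share of lower members among lists of 3 or more tested genes. Of 44 tested genes 38 fell (86.4%, against 7.88% of all genes) and none rose, all 44 values were below 0, and the median was -1.57 (range -3.18 to -0.26). H3C1 (chromosome 6, 26020451 to 26020958, plus strand, GRCh38) was at 217 and 241 CPM in NC, 92.1 and 92.8 at H1R1, 177 and 184 in H1R6 and 25.3 at H1R18 (log2 fold change -3.18, SE 0.15, adjusted p = 1.86e-14). H2AC12 went from 298 and 348 CPM to 52.6 CPM (log2 fold change -2.61, SE 0.13, adjusted p = 4.05e-14), H4C2 from 357 and 448 to 68.8 CPM (log2 fold change -2.55, SE 0.13, adjusted p = 1.58e-13) and H2BC12 from 559.9 and 532 to 158 CPM (log2 fold change -1.79, SE 0.10, adjusted p = 3.02e-13). For these 4 genes the H1R18 value was the lowest of the 9 libraries. The smallest fall among the called members was that of H2BC15 (-0.59, SE 0.13), named after its values were seen. These genes are members of families with near-identical copies, of which 15 listed genes had too few counts to be tested and 2 were not in the table, so values of single copies are uncertain. In bulk samples a lower histone level cannot be told apart as fewer cells in S phase or less histone RNA per S-phase cell.

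The other histones split by class. Of 7 tested linker histones 3 fell (42.9%, against 7.88% of all genes) and 2 rose (28.6%, against 6.55%). The linker histones H1-2, H1-3 and H1-4, which are made with the core histones, fell, with H1-4 going from 1468 and 1621 to 602 CPM (log2 fold change -1.36, SE 0.09, adjusted p = 1.61e-11). The replication-independent linker histone H1-10 rose from 149 and 147 to 365 CPM (log2 fold change 1.30, SE 0.10, adjusted p = 1.39e-10). Of 11 replacement core histones 5 fell (45.5%, against 7.88% of all genes) and none rose, with H3-3A going from 193 and 182 to 112 CPM (log2 fold change -0.74, SE 0.11, adjusted p = 4.31e-05).

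Genes of DNA replication were more often lower than higher. Of 59 tested members 22 were lower (37.3%, against 7.88% of all genes) and 1 was higher (1.69%, against 6.55%), with a median of -0.24. UHRF1, which reads hemimethylated DNA, went from 238 and 197 to 114 CPM (log2 fold change -0.93, SE 0.12, adjusted p = 2.61e-06), MCM6, a subunit of the replicative helicase, from 274 and 285 to 157 CPM (log2 fold change -0.83, SE 0.11, adjusted p = 4.37e-06), and ASF1B, a histone chaperone, from 107 and 109 to 60.4 CPM (log2 fold change -0.84, SE 0.15, adjusted p = 0.00023). CCNE2 and PCNA, named after their values were seen, were lower, at -1.58 (SE 0.38) and -0.57 (SE 0.11). The higher member was CDT1, the licensing factor that is degraded in S phase (0.49, SE 0.09), named after its values were seen, and without NC replicate 1 the number higher was 2. Of 16 tested G1 regulators 3 fell (18.75%, against 7.88% of all genes), 1 rose (6.25%, near the 6.55% of all genes) and 12 were not called. CCND1, CCND2 and CDK6 fell, CCND1 from 74.7 and 72.4 to 37.5 CPM (log2 fold change -0.97, SE 0.17, adjusted p = 0.000297). CDKN2D rose by 1.36 (SE 0.41), a call lost without NC replicate 2 and with DESeq2 (adjusted p 0.0176 to 0.122). Without either H1R1 library 2 G1 regulators were higher. Of 58 genes of G2 and mitosis 6 were higher (10.3%, against 6.55% of all genes) and 2 were lower (3.45%, against 7.88%), with a median of 0.08, and the number higher was 2 without NC replicate 1 and the number lower was 4 without either H1R1 library. MKI67, the proliferation marker, was at 539.9 and 522 CPM in NC and 500.2 CPM at H1R18 (adjusted p = 0.537).

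Of 30 immediate early factors 5 were higher (16.7%, against 6.55% of all genes) and 4 were lower (13.3%, against 7.88%). FOS, FOSB and EGR1, factors induced within minutes by serum or stress, fell below NC. FOS was at 20.2 and 27.8 CPM in NC, 77.2 and 57.2 at H1, 12.8 and 20.1 in H1R6 and 2.61 at H1R18 (log2 fold change -3.18, SE 0.44, adjusted p = 9.49e-06), and FOSB at 39.2 and 36.2 CPM in NC and 3.65 at H1R18 (log2 fold change -3.36, SE 0.43, adjusted p = 3.06e-06). EGR1 was lower, at -2.52 (SE 0.38) and was named after its values were seen. JUN, the partner of FOS in AP-1, was instead higher, at 279 and 293 CPM in NC, 1559 and 1510.2 at H1, 282 and 341 in H1R6 and 488 at H1R18 (log2 fold change 0.77, SE 0.09, adjusted p = 9.85e-07). One of the 5 higher calls, that of NR4A3 (2.01, named after its values were seen), was lost without NC replicate 2 (adjusted p 0.0104 to 0.0734).

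Clock genes were mostly higher. Of 19 tested members 10 were higher (52.6%, against 6.55% of all genes) and 2 were lower (10.5%, against 7.88%), with a median of 0.51, while the median was 0.07, -0.01 and -0.04 at H1, H1R1 and H1R6. TEF, a PAR bZIP output factor, was at 8.17 and 7.34 CPM in NC and at most 11.4 CPM in the other heated libraries, and reached 33.3 CPM at H1R18 (log2 fold change 2.10, SE 0.32, adjusted p = 5.08e-05). PER1, a repressor of CLOCK and BMAL1, went from 83.5 and 75.0 to 177 CPM (log2 fold change 1.16, SE 0.13, adjusted p = 4.63e-07) and RORA, an activator of BMAL1, from 33.1 and 28.6 to 66.4 CPM (log2 fold change 1.10, SE 0.21, adjusted p = 0.000494). PER3 rose by 1.61 (SE 0.31) and CLOCK itself fell by 0.59 on the log2 scale, both named after their values were seen. The number higher was 7 to 10 when any single library was left out, with the calls of PER2 (0.91) lost without either NC library and DBP (0.81) lost without NC replicate 2, both also with DESeq2 and DBP with no filter on low counts (adjusted p 0.0267 to 0.109 and 0.0207 to 0.101), and the number lower was 1 without either NC library. PER2 and DBP were named after their values were seen.

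**Figure D5:**
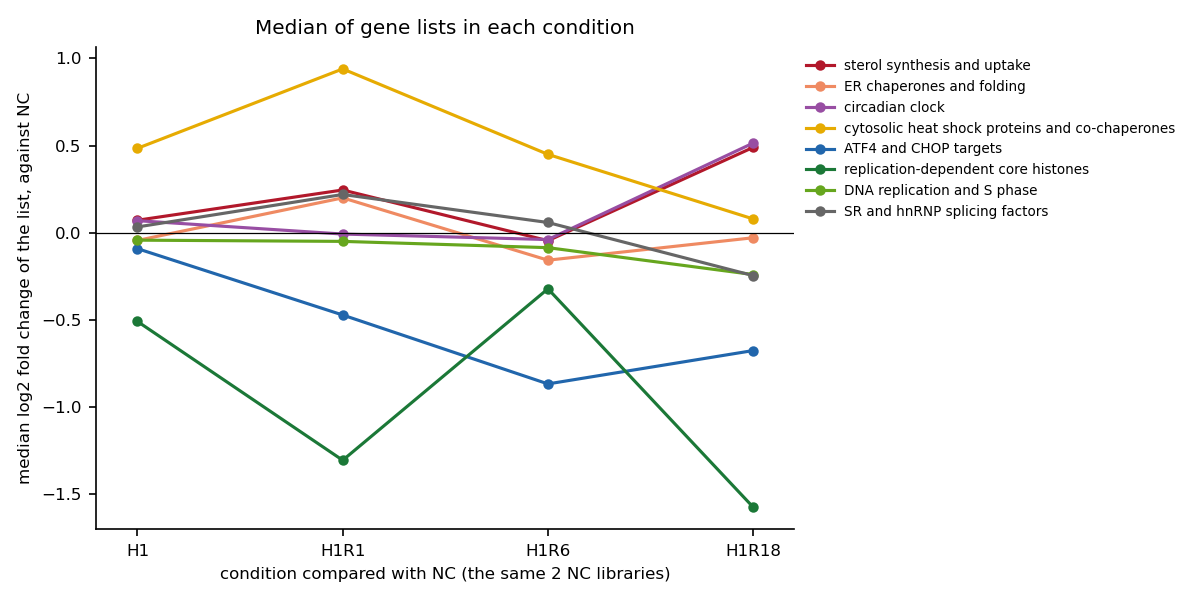
Median log2 fold change against NC (vertical axis) of 8 gene lists at H1, H1R1, H1R6 and H1R18 (horizontal axis). All points share the 2 NC libraries, and H1R18 is 1 library. The sterol and clock medians lie between -0.05 and 0.25 in the first 3 conditions and at 0.49 and 0.51 at H1R18, and the core histone median goes from -1.30 at H1R1 to -0.32 at H1R6 and -1.57 at H1R18.

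Genes of energy metabolism were more often lower than higher. Of 21 glycolysis genes 9 fell (42.9%, against 7.88% of all genes) and 2 rose (9.52%, against 6.55%), with a median of -0.33 and 1 higher without NC replicate 2. LDHA, the lactate dehydrogenase, went from 496 and 458 to 254 CPM (log2 fold change -0.91, SE 0.10, adjusted p = 1.72e-07), PKM, the pyruvate kinase, from 1062 and 985 to 658 CPM (log2 fold change -0.64, SE 0.08, adjusted p = 1.79e-06), and ENO1 from 1469 and 1508 to 998 CPM (log2 fold change -0.58, SE 0.08, adjusted p = 4.51e-06). The neuronal enolase ENO2, named after its values were seen, rose from 13.9 and 11.5 to 28.4 CPM (log2 fold change 1.15, SE 0.26, adjusted p = 0.00292). Of 76 nuclear genes of oxidative phosphorylation 16 fell (21.1%) and 1 rose (1.32%), with a median of -0.26, among them NDUFA8 of complex I, from 54.3 and 51.9 to 26.6 CPM (log2 fold change -1.0003, SE 0.18, adjusted p = 0.000362), and ATP5F1B of ATP synthase, at -0.34 (SE 0.08). Without NC replicate 2 the number lower was 9, and none was higher once NC replicate 1 was left out. Of 22 NRF2 targets and regulators 7 fell (31.8%, against 7.88% of all genes) and none rose, with PRDX1 and TXN, enzymes and carriers of thiol reduction, lower, at -0.54 (SE 0.11) and -0.69 (SE 0.10). Of 21 hypoxia-factor targets 3 were higher, among them NDRG1 (1.06, SE 0.16), and 3 were lower (14.3% each, against 6.55% and 7.88% of all genes).

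Splicing factors were more often lower than higher. The list of 36 tested genes held SR and hnRNP splicing factors and the CLK and SRPK kinases of SR proteins. Of these 36, 17 fell (47.2%, against 7.88% of all genes) and 3 rose (8.33%, against 6.55%), with a median of -0.25. HNRNPM went from 487 and 403 to 187 CPM (log2 fold change -1.25, SE 0.11, adjusted p = 7.82e-09), SRSF3 from 329 and 368 to 159 CPM (log2 fold change -1.13, SE 0.10, adjusted p = 1.01e-08) and SRSF6 from 159.7 and 151 to 72.7 CPM (log2 fold change -1.09, SE 0.14, adjusted p = 2.30e-06). The higher members were CLK1 and CLK3, kinases that phosphorylate SR proteins, and HNRNPDL. CLK1 was at 40.2 and 42.0 CPM in NC, 139.5 and 147 at H1, 34.6 and 41.1 in H1R6 and 78.4 at H1R18 (log2 fold change 0.93, SE 0.15, adjusted p = 7.34e-05), and CLK3 at 79.6 and 63.5 CPM in NC and 139 at H1R18 (log2 fold change 0.94, SE 0.13, adjusted p = 8.10e-06). These 3 were named after their values were seen. Of 23 host transcripts of small nucleolar RNAs 7 rose (30.4%, against 6.55% of all genes) and none fell, among them SNHG7 (0.75, SE 0.11), SNHG3 (0.61, SE 0.11) and ZFAS1 (0.95, SE 0.22). TAF1D, a subunit of the RNA polymerase I factor SL1 whose introns also hold small nucleolar RNAs, went from 104 and 110.4 to 359 CPM (log2 fold change 1.74, SE 0.10, adjusted p = 5.93e-13). Of 53 ribosome biogenesis genes, TAF1D among them, 10 fell (18.9%, against 7.88% of all genes) and 2 rose (3.77%, against 6.55%). NOP56 and UBTF were lower, at -0.69 (SE 0.11) and -0.71 (SE 0.11). MALAT1, an abundant nuclear noncoding RNA chosen after its values were seen, was at 2856 and 3231 CPM in NC, 5205 and 5371 in H1R6 and 8979.6 at H1R18 (log2 fold change 1.56, SE 0.07, adjusted p = 6.94e-15).

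Of 76 cytosolic ribosomal proteins 5 were higher, a share of 6.58% that was near the 6.55% of all genes, and 1 was lower (1.32%, against 7.88%). The median was 0.11, and the number higher was 3 without NC replicate 1 or either H1 library and 11 without NC replicate 2, when none was lower. Of 37 initiation factors 3 were higher (8.11%) and 8 were lower (21.6%). EIF1AX, which scans for the start codon, went from 158 and 186 to 84.2 CPM (log2 fold change -1.03, SE 0.13, adjusted p = 1.83e-06), and EIF4G1 and EIF4G2, scaffolds of initiation, fell by 0.57 and 0.68. Of 74 mitochondrial ribosomal proteins 4 were higher (5.41%) and 10 were lower (13.5%), and these numbers were 0 higher without NC replicate 1, 2 higher without either H1 library, and 6 lower without NC replicate 2.

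The nuclear envelope, which the study examined, changed in part. Of 20 tested genes of lamins, the LINC complex and the nuclear membrane 4 were higher (20%, against 6.55% of all genes) and 5 were lower (25.0%, against 7.88%), and without NC replicate 2 the number higher was 1. LMNB1, the gene of lamin B1, was at 232 and 221 CPM in NC, 184 and 193 in H1R6 and 111 at H1R18 (log2 fold change -1.03, SE 0.11, adjusted p = 2.00e-07). LBR, the lamin B receptor, went from 341 and 357 to 215 CPM (log2 fold change -0.70, SE 0.09, adjusted p = 6.46e-06), and LMNA, the gene of lamins A and C, from 90.3 and 98.6 to 68.0 CPM (log2 fold change -0.47, SE 0.13, adjusted p = 0.0146), the last a call lost without NC replicate 2 and with DESeq2 (adjusted p 0.0132 to 0.062). LMNB2 was at 457 and 412 CPM in NC and 432 CPM at H1R18, and SYNE1 at 32.1 and 40.1 and 33.6 CPM, both with an adjusted p over the threshold (0.964 and 0.838). SUN1 was higher by 0.32 (SE 0.10) and VIM, the gene of vimentin, by 0.33 (SE 0.10). The study itself reported that vimentin RNA and protein did not change significantly over heat and recovery, H1R18 included. The call for SUN1 was lost without either NC library and in 5 other alternatives, DESeq2 among them, and that for VIM without NC replicate 1, with no filter on low counts and in a fit of NC and H1R18 alone (adjusted p 0.0191 to 0.144 and 0.00987 to 0.0769). Of 32 nuclear pore genes 1 was higher (3.12%) and 3 were lower (9.38%), with 1 lower without NC replicate 1, and NUP153 was at 251 and 264 CPM in NC and 234 CPM at H1R18 (adjusted p = 0.367). Of 19 actins and SRF targets 3 were higher and 3 were lower, or 15.8% each, with 1 lower without NC replicate 1 or any library of H1 or H1R6. Of 12 tubulins none was higher and 2 were lower (16.7%), with 1 lower without NC replicate 1. Of 11 intermediate filaments outside the nucleus 2 were higher (18.2%) and 1 was lower (9.09%). In the last list NES, the gene of nestin, was the other higher member (0.81, SE 0.19), and its call was lost without NC replicate 2 (adjusted p 0.00183 to 0.0523).

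Both cold-inducible RNA-binding proteins fell, CIRBP from 254 and 278 to 171 CPM (log2 fold change -0.63, SE 0.11, adjusted p = 0.000177) and RBM3 from 257 and 270.4 to 199.6 CPM (log2 fold change -0.40, SE 0.10, adjusted p = 0.00594). Of 16 BCL2 family genes 2 fell (12.5%), HRK, which promotes cell death, with a log2 fold change of -1.62 (SE 0.24) and MCL1, which prevents it, with -0.40 (SE 0.10). Of 46 genes of secretory transport 6 were higher (13.04%, against 6.55% of all genes) and 5 were lower (10.9%, against 7.88%, and 8 genes without NC replicate 1), with SEC24D, a COPII coat subunit, higher by 1.15 (SE 0.15) and SEC61A1, the translocation channel, lower, at -0.48 (SE 0.09). Extracellular matrix and adhesion had 5 higher (14.7%) and 3 lower (8.82%) of 34, and leaving out NC replicate 1 gave 3 and 0, and NC replicate 2 gave 2 and 2. Homologous recombination and Fanconi genes had 1 higher and 3 lower of 29 (3.45% and 10.3%), p53 targets 2 and 1 of 22 (9.09% and 4.55%), targets of Notch, BMP and TGF-beta 2 and 3 of 17 (11.8% and 17.6%), YAP targets 0 and 1 of 20 (5.00% lower), Wnt targets 0 and 1 of 11 (9.09% lower), and mitochondrial chaperones 2 and 2 of 17 (11.8% each). The Wnt target called was CCND1 and the lower p53 target was SESN2, both counted in other lists too. The called genes SLC7A11, DDIT4, BHLHE40 and ATF3 were likewise shared between lists, so the list counts are not separate. Several of these small counts rested on single libraries. The number higher was 1 without either NC library for p53 targets, 1 without any 1 of the other libraries for Notch, BMP and TGF-beta targets, 1 without NC replicate 2 for mitochondrial chaperones and 2 without either H1R6 library for recombination genes. The number lower was 1 without NC replicate 1 for mitochondrial chaperones and 2 without either H1R1 library for p53 targets. None of 4 metallothioneins and 2 genes of adult kidney tested was called. Of 8 embryonic kidney factors 1 was higher and 1 lower (12.5% each, against 6.55% and 7.88% of all genes). These counts became 0 and 3 when NC replicate 2 was left out, while none was lower when NC replicate 1 was.

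Among the largest changes with an average level of at least 3 (log2 CPM) were noncoding genes of families with several copies. The U1 variant RNVU1-28 (chromosome 1, 144560666 to 144560829, minus strand) was at 0.817 and 3.67 CPM in NC, at most 8.78 CPM in the other heated libraries, and 517 CPM at H1R18 (log2 fold change 7.94, SE 0.39, adjusted p = 4.05e-14). The average level includes H1R18, and RNVU1-28 reached 3 only through that library, so its place among these genes is not independent of its change. RNU1-28P, RN7SL335P and RN7SKP255, copies of U1, 7SL and 7SK RNA, rose by 2.29, 2.01 and 1.96, the first a call lost with DESeq2 (adjusted p 1.51e-177 to 0.0819). RNU1-28P was also at 1745 CPM in 1 of the H1R6 libraries and at 352 in the other. Since reads with several alignments were not counted, values of such copies are uncertain. Among coding genes, MVP, the major vault protein, went from 5.31 and 4.72 to 33.9 CPM (log2 fold change 2.74, SE 0.32, adjusted p = 7.74e-07) and SAT1, which acetylates spermidine and spermine for export, from 19.6 and 18.9 to 81.3 CPM (log2 fold change 2.08, SE 0.20, adjusted p = 1.96e-08). Among the largest falls, ENSG00000281181 (chromosome 21, typed as a lincRNA) went from 11626 and 4706 CPM to 309 CPM, with a wide gap between the NC libraries. In NC the lincRNA genes of that chromosome's short arm held 1.43% and 0.576% of counts. These genes held 0.0458% to 0.590% in the other heated libraries and 0.0530% at H1R18. The cause of this variation was not tested. DOK3, an adaptor of immune receptors, had 41 and 64 counts in NC and 2 at H1R18, a ratio of 23.4 with an exact 95% counting interval of 4.02 to 940.3 on read pairs. FOXF2-DT had 38 and 18 counts in NC and 2 at H1R18 (12.3, interval 2.04 to 505), and ENSG00000262202 had 49 and 30 and 2 (17.6, interval 2.99 to 714). These intervals cover counting error only.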

How the data were processed

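Total RNA of HEK293T cells was sequenced after removal of ribosomal RNA, in 9 libraries of 5 conditions. The deposited values are raw counts per gene, made by the authors with featureCounts 2.0.2 over the exons of Ensembl release 104 (GRCh38). Each read of a pair was counted, strand was not used, and reads with several alignments or over several genes were not counted. FastQC 0.11.8, cutadapt 4.1, HISAT2 2.2.1 and DESeq2 1.38.3 are listed in the processing notes of the submitters. The sources used here give no test for the RNA-seq.

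Counts were analysed in R 4.3.3 with edgeR 4.0.16 (TMM factors, 1 coefficient per condition, all 9 libraries, quasi-likelihood F test, Benjamini-Hochberg adjustment over 16914 genes). The SE is the absolute log2 fold change divided by the square root of F. The common biological coefficient of variation was 0.0875 and the prior degrees of freedom 22.4. H1R18, with 1 library, was assumed to vary like the others. Genes needed 1.81 CPM on average over the 5 conditions, which is 10 counts in the median library of 5533404 counts. Gene types came from GENCODE 29. CPM are shares of a library, so they do not give RNA per cell. The code was tested on simulated data.

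The libraries compared and the 48 gene lists were chosen with earlier results of these data known. Genes named are the 12 largest called changes in each direction among genes of log2 CPM 3 or more on average, the 4 members of each list with the smallest p and the 2 most abundant, and genes the study discusses. Others are named as chosen after their values were seen. The 20 alternatives covered 3 other scalings, DESeq2 1.42.0, limma-voom (limma 3.58.1), 3 other filters, only NC and H1R18, a replicate block, counts halved to read pairs, a test against a 2-fold change, and 8 fits that each left a library out. Summaries and figures used Python 3.11.15, pandas 2.3.3, numpy 2.4.6 and matplotlib 3.10.9. A few members of the lists are counted but not reported here by name.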

Additional observations from a re-analysis of the deposited data

Results flagged for a closer look

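Of the 24 largest changes at H1R18, 18 also differed between H1R18 and H1R6 in the same fit (edgeR's quasi-likelihood test, adjusted p under 0.05), against 18.3% of all genes tested, and the NC libraries do not enter that difference. The log2 difference of H1R18 from H1R6 was 6.65 for RNVU1-28, 2.31 for MVP, 2.59 for ENSG00000232611, 1.46 for HMGCS1, 1.82 for TEF, 1.55 for SAT1, 1.32 for MSMO1 and 1.72 for RN7SKP255. It was -2.28 for HSPA6, -4.58 for ENSG00000264063, -1.66 for ENSG00000281181, -4.20 for DOK3, -4.37 for ENSG00000262202, -4.03 for FOXF2-DT, -3.29 for ENSG00000279443, -2.15 for FOSB, -2.65 for FOS and -2.84 for H3C1. The adjusted p was 2.68e-10 for HMGCS1, 0.000133 for FOS and 1.56e-13 for H3C1. These genes were selected for their change against NC in the same H1R18 library, so the differences are not independent of that selection. HSPA6 stood above NC at 18 h and below its level at 6 h. DOK3, FOXF2-DT, ENSG00000262202 and ENSG00000279443 rest on 2 counts at H1R18, and RNVU1-28 and RN7SKP255 are copies in families whose reads were counted only where they aligned once.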

How the results depend on the processing

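The 1108 higher and 1332 lower genes became 616 and 851 with DESeq2 and 20 and 53 in a test against a 2-fold change, and ran from 869 to 1156 and 1097 to 1367 with a library left out. The replicate numbers did not pair the libraries (correlations of deviations from -0.0388 to 0.0412 over 11762 genes), and a replicate block gave 999 and 1193. With a library left out the list counts ran 11 to 12 for sterol genes (higher), 23 in each for ATF4 and CHOP targets (lower), 7 to 8 for tRNA synthetases (lower), 11 to 16 for proteasome subunits (lower), 36 to 39 for core histones (lower), 16 to 22 for S phase genes (lower), 9 to 16 for oxidative phosphorylation (lower), 8 to 9 for glycolysis (lower), 7 to 10 for clock genes (higher), 14 to 17 for splicing factors (lower). Oxidative phosphorylation was 9 with DESeq2. Against a 2-fold change, 4 sterol genes, 3 ATF4 and CHOP targets and 0 members of tRNA synthetases, proteasome subunits, S phase genes, oxidative phosphorylation, glycolysis, clock genes and splicing factors passed. Of 274 called genes that the naming rule gave or that were added to it, 225 kept the call with DESeq2, 235 and 240 without NC replicate 1 and 2, and none changed sign in any alternative. Reversed values, all of genes not called, were NUP205 -0.0086 (no filter on low counts), TKT -0.020 (no filter on low counts), -0.0052 (filterByExpr by condition), SCD -0.00089 (limma-voom), -0.030 (no filter on low counts), -0.015 (filterByExpr by condition), -0.0021 (only NC and H1R18), -0.022 (replicate block), -0.053 to 0.070 with a library left out. They were also LMNB2 0.0064 (upper-quartile factors), 0.0018 (library size only), 0.013 (at least 10 counts in every library), -0.079 to 0.073 with a library left out, MRPL42 -0.11 to 0.069 with a library left out, GAS5 -0.12 to 0.022 with a library left out, CREB3L2 -0.16 to 0.0054 with a library left out, SYNE1 -0.25 to 0.071 with a library left out, MT2A -0.62 to 0.055 with a library left out. The causes were not tested. The limits are the single H1R18 library, an NC with no collection time given, and a depth at which genes of a few counts carry wide counting error.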
